A study of Arabidopsis thaliana with 30 samples.

Results

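Root hair regulators and effectors were followed in Arabidopsis seedlings. The plants were wild type with or without nitrogen, a nitrogen-starved AtNIGT1.2 overexpressor and an inducible AtNIGT1.2-VP line on sufficient nitrogen. The set was defined by name as 10 loci: the transcription factor genes RHD6 (AT1G66470), RSL1 (AT5G37800), RSL2 (AT4G33880) and RSL4 (AT1G27740), and the effector genes RHD2 (AT5G51060), COW1 (AT4G34580), EXPA7 (AT1G12560), EXPA18 (AT1G62980), PRP3 (AT3G62680) and LRX1 (AT1G12040). A probe set counted for a locus where its gene entry named no gene outside the set. Of the 10 loci, 8 had such a probe set, 1 each, among the 21227 genes with one; no probe set was assigned to RSL1 or RSL2, and neither is described further. RHD6, RSL4, EXPA7, EXPA18 and LRX1 lie on chromosome 1, PRP3 on chromosome 3, COW1 on chromosome 4 and RHD2 on chromosome 5.

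Root hairs are tubular outgrowths of single epidermal cells that enlarge the surface through which a root takes up water and nutrients. In the Arabidopsis root, RHD6 and RSL1, basic helix-loop-helix factors, start hair outgrowth, and their relatives RSL4 and RSL2 set how long the hair goes on growing. Growth at the tip uses reactive oxygen made by the NADPH oxidase RHD2 and lipid signalling that involves COW1, a phosphatidylinositol transfer protein, while expansins (EXPA7, EXPA18), a proline-rich wall protein (PRP3) and a leucine-rich repeat extensin (LRX1) act in the wall.

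Levels were measured on Affymetrix arrays in 30 samples, with 5 groups of 3 in roots and 5 groups of 3 in shoots. OX_Nstv was the AtNIGT1.2 overexpressor and WT_Nstv was wild type Col-0, and both spent 3 days on MGRL plates lacking any nitrogen source. VP_+Est and VP_Mock were the inducible AtNIGT1.2-VP line, moved at an age of 9 days to plates with 5 mM NH4NO3 and left there for 24 h with β-estradiol (10 mM as the labels write it) or without it; Col-0 and the overexpressor had been moved at an age of 7 days. WT_Nsuf was Col-0 kept for 3 days on MGRL plates with 5 mM NH4NO3. All seedlings had been raised on half-strength Murashige-Skoog agar with sucrose and were 10 days old at harvest. The labels do not spell out VP, name no promoter for either line and do not give the number of independent lines; a wild type treated with β-estradiol was not analysed here, so the agent and the induced protein cannot be told apart. The overexpressor on sufficient nitrogen was not analysed here either.

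Within groups the arrays correlated at r = 0.996 to 0.999 in roots and 0.994 to 0.998 in shoots, and array medians lay between 6.92 and 7.08 in roots and between 6.61 and 6.76 in shoots on the log2 scale. The probe set of AtNIGT1.2 (AT1G68670) averaged 13.67 ± 0.08 in OX_Nstv roots against 7.81 ± 0.08 in WT_Nstv roots, and 13.33 ± 0.05 in VP_+Est roots against 9.21 ± 0.04 in VP_Mock roots (log2, SD, n = 3 each); WT_Nsuf roots were at 8.93 ± 0.10. In roots 15922 probe sets with a mean of at least 5.33 were tested and in shoots 15922 with a mean of at least 5.03. All 8 measured root hair genes passed this filter in roots, and 3 (EXPA7, EXPA18 and RHD2) passed it in shoots.

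Nitrogen starvation raised all 8 root hair genes in wild-type roots. The gains ranged from 1.19-fold for LRX1 to 2.67-fold for PRP3, with a median log2 difference of 0.77 against 0.06 over all probe sets tested. By limma with Benjamini-Hochberg adjustment 8 of 8 passed as higher at an adjusted p of 0.05, where 33.1% of all probe sets tested passed as higher and 21.8% as lower. The WT_Nstv and WT_Nsuf arrays did not overlap for 6 genes, against 33.9% of all probe sets with no overlap and WT_Nstv above. With each array centred on its median, the probe sets called over the whole array split into 4207 higher and 4396 lower, in place of 5265 and 3466, and the 8 genes kept their direction, but LRX1 no longer passed (0.19, adjusted p = 0.124). In whole roots, a change in the number of hair cells and a change in the RNA per hair cell cannot be told apart.

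**Figure D1:**
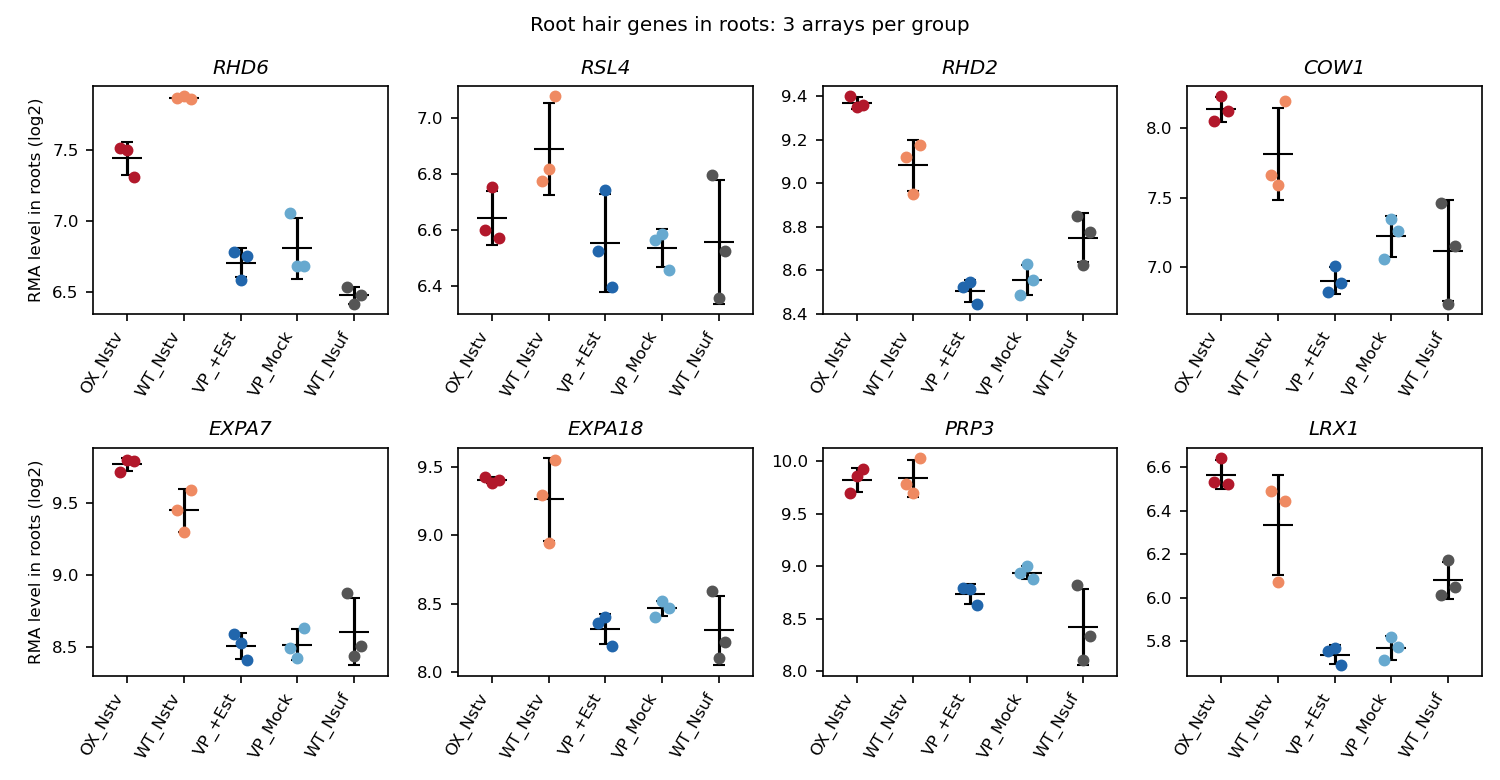
Level of each root hair gene in every root array (RMA log2, vertical axes differ between panels) in the groups OX_Nstv, WT_Nstv, VP_+Est, VP_Mock and WT_Nsuf. Points are arrays, horizontal bars group means and error bars SD (n = 3); both starved groups lie above the 3 groups on NH4NO3 for RHD6, EXPA7, EXPA18, PRP3, COW1 and RHD2.

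Among the transcription factors, RHD6 had the larger response. Its level was 7.86, 7.88 and 7.86 in the WT_Nstv roots, against 6.54, 6.42 and 6.48 in the WT_Nsuf roots. The starved arrays lay together, all above every sufficient array, and the difference of 1.39 ± 0.10 (log2, SE) was a 2.62-fold gain (adjusted p = 9.23e-11, limma). RSL4, which promotes hair elongation, read 6.78, 6.82 and 7.08 in WT_Nstv roots and 6.80, 6.35 and 6.52 in WT_Nsuf roots. Here the groups overlapped through the first sufficient array. The difference was 0.33 ± 0.11 (adjusted p = 0.0162, limma), and it no longer passed without WT_Nstv replicate 3 (0.24, adjusted p = 0.102) or without WT_Nsuf replicate 2 (0.23, adjusted p = 0.106).

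The tip-growth genes rose as well. RHD2, the NADPH oxidase, read 9.12, 8.95 and 9.18 in WT_Nstv roots and 8.85, 8.63 and 8.77 in WT_Nsuf roots, a difference of 0.33 ± 0.07 (adjusted p = 0.000387, limma). The gap between its groups was narrow, with the lowest starved array just above the highest sufficient one. COW1 read 7.66, 7.59 and 8.19 in WT_Nstv roots and 7.46, 6.73 and 7.15 in WT_Nsuf roots, a difference of 0.70 ± 0.15 (adjusted p = 0.000469, limma). COW1 had wide groups, with SDs of 0.33 in WT_Nstv and 0.36 in WT_Nsuf, with 1 high starved array, and a high and a low sufficient array.

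Of the wall genes, PRP3 had the highest fold. PRP3 read 9.78, 9.70 and 10.03 in WT_Nstv roots, against 8.82, 8.11 and 8.33 in WT_Nsuf roots, a difference of 1.42 ± 0.12 (adjusted p = 2.67e-09, limma). The starved arrays were all clear of the sufficient ones. The expansin EXPA7 read 9.46, 9.30 and 9.59 in WT_Nstv roots and 8.87, 8.43 and 8.51 in WT_Nsuf roots (1.80-fold, adjusted p = 1.55e-07, limma). EXPA18, its close relative, read 9.29, 8.94 and 9.55 in WT_Nstv roots and 8.59, 8.10 and 8.22 in WT_Nsuf roots (1.94-fold, adjusted p = 6.45e-07, limma). For both expansins replicate 1 was the highest sufficient array and replicate 2 the lowest starved array. LRX1, the extensin, read 6.49, 6.07 and 6.44 in WT_Nstv roots and 6.01, 6.17 and 6.05 in WT_Nsuf roots, and its groups overlapped through the low second starved array. The LRX1 difference of 0.26 ± 0.10 (adjusted p = 0.0301, limma) did not pass without WT_Nstv replicate 1 (0.18, adjusted p = 0.163) or replicate 3 (0.20, adjusted p = 0.123), nor without WT_Nsuf replicate 1 (0.22, adjusted p = 0.0873) or replicate 3 (0.24, adjusted p = 0.0734).

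In some arrays most of the root hair genes deviated from their group means in the same direction. In WT_Nstv replicate 2, 1 of the 8 genes lay above its group mean, and in replicate 3 of that group 7 did, with mean deviations of -0.16 and 0.17 (log2). In WT_Nsuf replicate 1, 7 of 8 lay above the group mean (mean deviation 0.20), and in replicate 2 of that group 1 did (-0.17). The remaining wild-type arrays, WT_Nstv replicate 1 and WT_Nsuf replicate 3, had 4 and 3 of the 8 above. The 9 arrays of the other groups had mean deviations between -0.07 and 0.05. Among these, VP_+Est replicate 2 had 7 of the 8 genes above the group mean and VP_+Est replicate 3 had 1. The same counts were not made over all probe sets, so a shift of the whole array was not tested.

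In the authors' deposited table the starvation ratios of the 8 genes have the same signs, with a Benjamini-Hochberg value under 0.05 for RHD6 alone (0.0171 in the authors' deposited table) and a q-value under 0.05 for 5 of the 8. For overexpression and for induction in roots, 0 of the 8 genes had either value under 0.05 in that table. The p-values behind these values come from another test than limma's, which took its spread from all 15 root arrays.

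Under overexpression of AtNIGT1.2 in starved roots, 3 of the 8 root hair genes passed against WT_Nstv: RHD6 fell, and EXPA7 and RHD2 rose. The 2 of 8 higher and the 1 of 8 lower are near the shares over all probe sets tested, of which 21.4% were higher and 16.7% lower. Every OX_Nstv array lay above every WT_Nstv array for 3 genes (27.6% of all probe sets) and below for 2 (19.6%). The median of the 8 log2 differences was 0.19, against 0.03 over all probe sets tested. This comparison shares the WT_Nstv arrays with the starvation comparison, so a shift in those arrays moves the values of both, in opposite directions.

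RHD6 read 7.51, 7.50 and 7.31 in OX_Nstv roots, against 7.86, 7.88 and 7.86 in WT_Nstv roots. All overexpressor arrays were below all wild-type arrays, and the level fell by 0.43 on the log2 scale (SE 0.10, adjusted p = 0.0014, limma). RSL4 read 6.60, 6.75 and 6.57 in OX_Nstv roots, also below its WT_Nstv arrays without overlap, with a difference of -0.25 ± 0.11 that did not pass (adjusted p = 0.0877, limma). RHD2 read 9.40, 9.35 and 9.36 in OX_Nstv roots, above all its WT_Nstv arrays, and rose by 0.29 ± 0.07 (adjusted p = 0.00262, limma). EXPA7 read 9.72, 9.80 and 9.79 in OX_Nstv roots, again above all its WT_Nstv arrays, and rose by 0.32 ± 0.09 (adjusted p = 0.0101, limma). That call was lost without WT_Nstv replicate 2 (0.25, adjusted p = 0.0611).

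The other effectors stayed short of the threshold in this comparison. COW1 read 8.05, 8.23 and 8.13 in OX_Nstv roots (difference from WT_Nstv 0.32 ± 0.15, adjusted p = 0.0973, limma), and LRX1 read 6.53, 6.64 and 6.52 (0.23 ± 0.10, adjusted p = 0.067). Both passed by limma without WT_Nstv replicate 3, at adjusted p = 0.00912 for COW1 and 0.0497 for LRX1. That brought the count to 5 of 8, for which no share over all probe sets is given. LRX1 also passed without WT_Nstv replicate 1 (0.31, adjusted p = 0.0277). EXPA18 read 9.42, 9.38 and 9.40 in OX_Nstv roots, inside the range of its WT_Nstv arrays, with a 95% interval of the difference from -0.10 to 0.39. PRP3 read 9.70, 9.85 and 9.92 in OX_Nstv roots, also overlapping WT_Nstv, with an interval from -0.26 to 0.24.

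**Figure D2:**
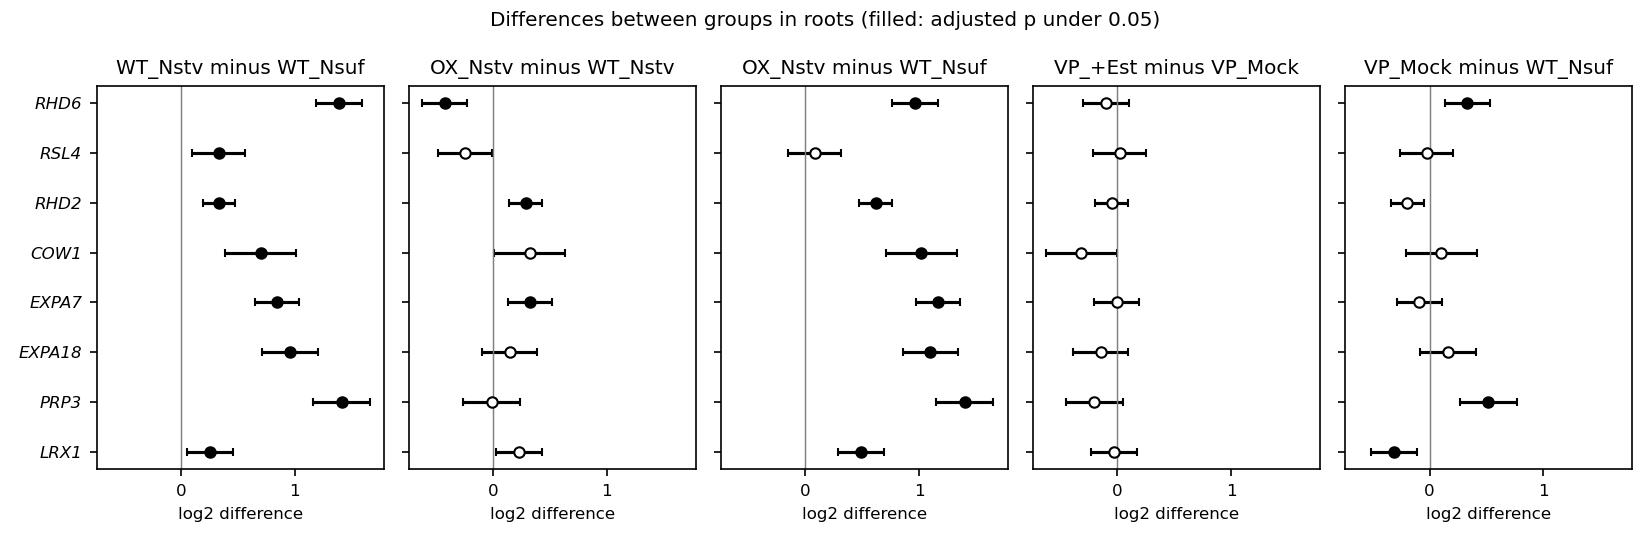
Log2 difference between groups for each root hair gene in roots, with 95% confidence intervals from the fit over 15 arrays; filled points have an adjusted p under 0.05. All 8 genes lie right of 0 for WT_Nstv minus WT_Nsuf, RHD6 lies left of 0 at -0.43 for OX_Nstv minus WT_Nstv, and no point is filled for VP_+Est minus VP_Mock.

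Set against WT_Nsuf roots, the starved overexpressor had 7 of the 8 genes higher, where 41% of all probe sets tested were higher. The 7 did not overlap between OX_Nstv and WT_Nsuf, against 42.4% of all probe sets with no overlap and OX_Nstv above. RHD6 was 0.96 ± 0.10 higher (1.95-fold), COW1 2.03-fold, EXPA18 2.14-fold, EXPA7 2.24-fold and PRP3 2.65-fold higher. RSL4 was the exception, with a difference of 0.08 ± 0.11 (adjusted p = 0.524, limma) and a 95% interval from -0.15 to 0.32. This comparison mixes the line with the nitrogen supply, and it shares the WT_Nsuf arrays with the starvation comparison.

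Induction of the VP line on sufficient nitrogen moved none of the 8 genes past the threshold by limma. All probe sets tested were called higher in 15.6% and lower in 28.3%. At an unadjusted p under 0.05, 1 of the 8 genes passed. No share over all probe sets is given for the unadjusted rule, so that count is not read as a result about the genes. The median difference of the 8 was -0.08, against -0.07 over all probe sets tested. COW1 was the one with the small unadjusted p. It read 6.82, 7.01 and 6.88 in VP_+Est roots, against 7.06, 7.35 and 7.26 in VP_Mock roots, a difference of -0.32 ± 0.15 (adjusted p = 0.0916, limma) with no overlap between the groups.

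PRP3 and EXPA18 also had every induced array below every mock array, where 39.3% of all probe sets did. PRP3 read 8.79, 8.78 and 8.63 in VP_+Est roots and 8.93, 9.0 and 8.88 in VP_Mock roots (-0.20 ± 0.12, adjusted p = 0.182, limma). EXPA18 read 8.36, 8.40 and 8.19 in VP_+Est roots and 8.41, 8.52 and 8.47 in VP_Mock roots (-0.15 ± 0.12, adjusted p = 0.331, limma). With the spread taken from the compared arrays alone, COW1 (adjusted p = 0.01) and PRP3 (adjusted p = 0.0166) passed as lower, and with array weights COW1, PRP3 and EXPA18 did.

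The remaining genes overlapped between VP_+Est and VP_Mock. RHD6 read 6.78, 6.59 and 6.75 in VP_+Est roots and 7.05, 6.68 and 6.69 in VP_Mock roots, with a 95% interval of the difference from -0.30 to 0.10. RSL4 read 6.52, 6.74 and 6.39 in VP_+Est roots and 6.56, 6.58 and 6.46 in VP_Mock roots (interval -0.21 to 0.25). The first mock array was the high one for RHD6, and the second induced array was the high one for RSL4. EXPA7 read 8.59, 8.52 and 8.41 in VP_+Est roots and 8.49, 8.42 and 8.63 in VP_Mock roots (interval -0.20 to 0.19). RHD2 read 8.52, 8.54 and 8.44 in VP_+Est roots and 8.49, 8.63 and 8.55 in VP_Mock roots (interval -0.20 to 0.09). LRX1 completed the set with 5.75, 5.77 and 5.69 in VP_+Est roots and 5.71, 5.82 and 5.77 in VP_Mock roots (interval -0.23 to 0.17). A missed threshold does not show that the levels were equal.

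The overexpression and induction effects were then compared directly in the same fit. COW1 had a more positive effect in the overexpressor by 0.64 ± 0.21 (adjusted p = 0.017, limma), RHD2 by 0.34 ± 0.10 (adjusted p = 0.00747) and EXPA7 by 0.33 ± 0.13 (adjusted p = 0.0472). These 3 of 8 are near the share over all probe sets tested, of which 29.5% were more positive and 17.3% less. The median of this difference over all probe sets tested was 0.10. The COW1 call was lost without WT_Nstv replicate 2 (0.52, adjusted p = 0.0528), and the EXPA7 call was lost on leaving out any 1 of 9 arrays, so that without WT_Nstv replicate 2 the count was 1. The EXPA7 call was also lost with centring (0.28, adjusted p = 0.0932), quantile normalization (0.29, adjusted p = 0.0745), no intensity trend (adjusted p = 0.0704) and no filter (adjusted p = 0.0556). For RHD6 the difference was -0.33 ± 0.14 (adjusted p = 0.0539); it passed without OX_Nstv replicate 1 (adjusted p = 0.0478), VP_+Est replicate 2 (adjusted p = 0.0356) or VP_Mock replicate 1 (adjusted p = 0.0045). It passed also with centring (-0.38, adjusted p = 0.0182), quantile normalization (-0.36, adjusted p = 0.0226), array weights (-0.42, adjusted p = 0.00323), no intensity trend (adjusted p = 0.0471) and the replicate number as a block (adjusted p = 0.0419). EXPA18 passed without WT_Nstv replicate 3 (0.43, adjusted p = 0.026). The effects come from different nitrogen supplies, times and lines.

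The VP line without inducer differed from WT_Nsuf roots in 3 root hair genes. RHD6 (0.33 ± 0.10, adjusted p = 0.0202, limma) and PRP3 (0.52 ± 0.12, adjusted p = 0.00504) were higher in VP_Mock, where 12.1% of all probe sets tested were higher. LRX1 was lower (-0.31 ± 0.10, adjusted p = 0.0302), where 6.1% were. None of the 3 overlapped between the groups, against 22.1% of all probe sets with no overlap and VP_Mock above and 10.9% with VP_Mock below. These groups differ in line and in the age at transfer, which cannot be told apart. Without VP_Mock replicate 1, only PRP3 passed: RHD6 came to 0.21 (adjusted p = 0.15) and LRX1 to -0.28 (adjusted p = 0.113). Without WT_Nsuf replicate 2, RHD6 (adjusted p = 0.069) and LRX1 (adjusted p = 0.113) did not pass and RHD2 did as lower (-0.26, adjusted p = 0.0214); LRX1 was also lost without VP_Mock replicate 3 (adjusted p = 0.066) or WT_Nsuf replicate 3 (adjusted p = 0.0549). RHD6 was also lost with the spread of the compared groups alone (adjusted p = 0.0698), and RHD6 (adjusted p = 0.0935) and LRX1 (adjusted p = 0.0536) with array weights. RHD2 passed as lower with centring (-0.25, adjusted p = 0.0178) and with quantile normalization (-0.23, adjusted p = 0.0204).

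The order of the groups by mean level differed among the genes. RHD6 was highest in WT_Nstv (7.87), then OX_Nstv (7.44), VP_Mock (6.81), VP_+Est (6.71) and WT_Nsuf (6.48); the VP_Mock and VP_+Est arrays overlapped. RSL4 was also highest in WT_Nstv (6.89), and its other groups, from OX_Nstv (6.64) to VP_Mock (6.53), overlapped one another. The effectors EXPA7, EXPA18, COW1, RHD2 and LRX1 were highest in OX_Nstv. EXPA7 averaged 9.77 there, then 9.45 in WT_Nstv, with WT_Nsuf (8.61), VP_Mock (8.52) and VP_+Est (8.51) overlapping below. PRP3 had WT_Nstv (9.84) and OX_Nstv (9.82) overlapping at the top and WT_Nsuf (8.42) with the lowest mean, overlapping VP_+Est. LRX1 and RHD2 had VP_+Est at the bottom (5.74 and 8.5), overlapping VP_Mock. EXPA18 (9.40 in OX_Nstv and 9.26 in WT_Nstv) and COW1 (8.14 and 7.82) had overlapping starved groups at the top. Below them came VP_Mock (8.46), VP_+Est (8.32) and WT_Nsuf (8.30) for EXPA18, and VP_Mock (7.22), WT_Nsuf (7.12) and VP_+Est (6.90) for COW1. For both genes the WT_Nsuf arrays overlapped those of VP_Mock and of VP_+Est.

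In shoots the root hair genes were dim. Over the 15 shoot arrays the 8 genes lay between 4.26 and 5.71, and 5 of them averaged below the filter level of 5.03. The 3 tested gave no call by limma in any comparison: starvation (27.8% of all probe sets higher and 26.3% lower), overexpression (30.6% and 20.7%), induction (23.8% and 25.5%) or the uninduced line (17.7% and 15.8%). At an unadjusted p under 0.05, 1 of the 3 passed for induction and 0 for the other comparisons. The share of all probe sets passing that unadjusted rule is not given, so these counts are not read as results about the genes. EXPA7 had the 1 small unadjusted p, with a difference of -0.28 ± 0.13 in VP_+Est shoots against VP_Mock shoots (adjusted p = 0.0868, limma). Without VP_Mock replicate 1 in shoots, EXPA7 (-0.40, adjusted p = 0.0217) and EXPA18 (-0.47, adjusted p = 0.00815) passed as lower. The tissues were normalized in separate tables, so only differences within a tissue are set side by side. The response in roots was tested against that in shoots in one limma fit over the probe sets above the filter in both tissues, which hold EXPA7, EXPA18 and RHD2. Of these 3, EXPA7 and EXPA18 differed for starvation, near the share over all probe sets (53.7%). By the same fit 0 of the 3 differed for overexpression (34.2%), induction (43%) or the uninduced line (23%). At an unadjusted p under 0.05, RHD2 alone of the 3 passed for overexpression and for the uninduced line, and 0 passed for induction. Here too the unadjusted share over all probe sets is not given.

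**Figure D3:**
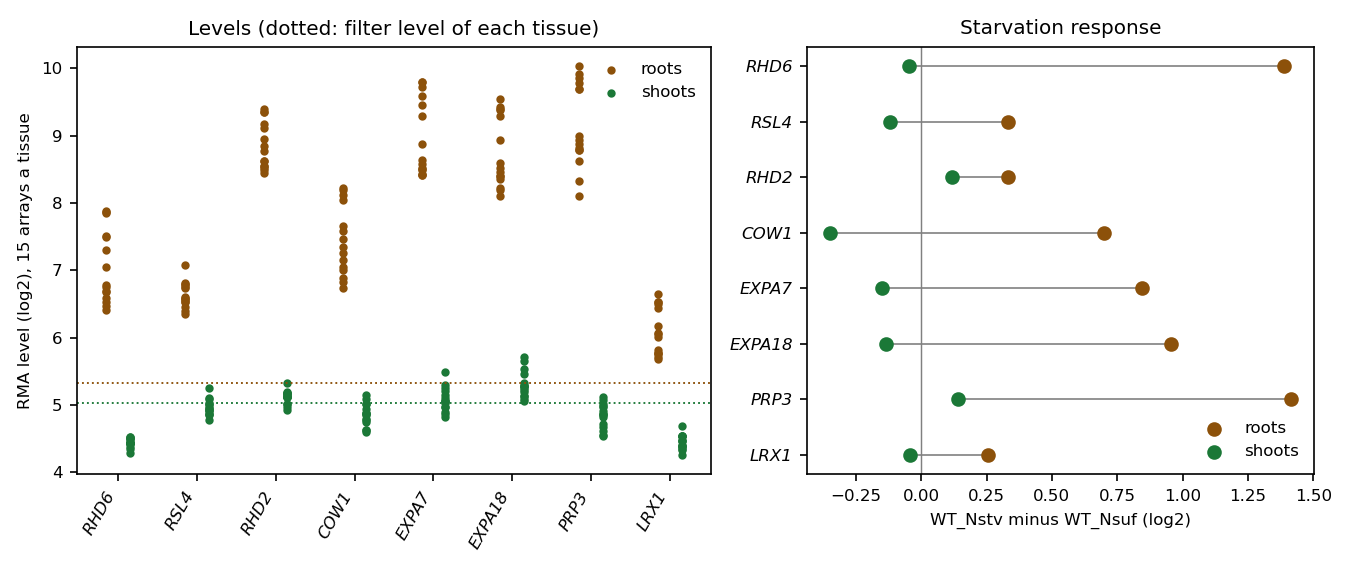
Left, RMA log2 level of each root hair gene in the 15 root arrays and the 15 shoot arrays, with the filter level of each tissue dotted (5.33 roots, 5.03 shoots); the tissues were normalized separately. Right, log2 difference WT_Nstv minus WT_Nsuf of each gene in roots and shoots; EXPA7 is at 0.84 in roots and -0.15 in shoots, and the shoot values of RHD6, RSL4, COW1, PRP3 and LRX1 come from levels below the filter.

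Other genes of the hair programme were read from lists, chosen like the members with earlier results known. Under starvation, 17 of the 20 further hair wall and growth genes passed the filter and 17 of 17 were higher in WT_Nstv roots, with a median of 1.13; over all probe sets tested the shares were 33.1% higher and 21.8% lower. XTH13 (2.18 ± 0.15) and XTH12 (2.53 ± 0.20), xyloglucan-modifying enzymes, led this list; they are near-identical copies whose probes may share signal, so their separate values are uncertain. RHS12, annotated in the files as a pectinesterase, rose by 1.42 ± 0.11, RHS19 by 1.5 ± 0.12, MRH6 by 1.31 ± 0.12 and the COBRA-like gene SHV2 by 0.89 ± 0.08. Under overexpression 2 of these 17 were higher and 5 lower, where 21.4% of all probe sets were higher and 16.7% lower, with a median of -0.13. XTH13 (-1.19 ± 0.15), XTH12 (-1.17 ± 0.20), PRP1 (-0.80 ± 0.21), AT4G26010 (-0.49 ± 0.10) and RHS19 (-0.32 ± 0.12) fell in OX_Nstv, whereas the cellulose synthase-like CSLD3 (0.26 ± 0.06) and SHV3 (0.39 ± 0.08) rose. Under induction the split was also 2 higher and 5 lower, with AT4G26010 (-0.76 ± 0.10), MRH6 (-0.57 ± 0.12), SHV2 (-0.30 ± 0.08), SHV3 (-0.30 ± 0.08) and CSLD3 (-0.28 ± 0.06) lower in VP_+Est, BST1 (0.49 ± 0.10) and RHS19 (0.32 ± 0.12) higher and a median of -0.07. These counts for induction lie near the shares over all probe sets tested, 15.6% higher and 28.3% lower.

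Upstream of RHD6, hair and non-hair fates are set by a patterning network in which GL2, a homeodomain factor, represses hair genes, MYB66 (WER) drives the non-hair fate and CPC promotes the hair fate. Of 11 patterning loci, 8 were tested. The shares over all probe sets, against which this and the next lists are counted, were 33.1% higher and 21.8% lower for starvation, 21.4% and 16.7% for overexpression and 15.6% and 28.3% for induction. Under starvation 3 were higher and 0 lower in WT_Nstv: the receptor-like kinase SUB (0.53 ± 0.09), GL2 (0.31 ± 0.09) and CPC (0.28 ± 0.09). Under overexpression 5 were higher and 0 lower in OX_Nstv: GL2 (0.40 ± 0.09), JKD (0.43 ± 0.11), MYB23 (0.52 ± 0.14), SUB (0.30 ± 0.09) and EGL3 (0.29 ± 0.09). Under induction 0 were higher and 3 lower in VP_+Est: GL2 (-0.44 ± 0.09), MYB66 (-0.35 ± 0.10) and TTG1 (-0.24 ± 0.09). The list medians were 0.18, 0.29 and -0.20 for starvation, overexpression and induction.

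**Figure D4:**
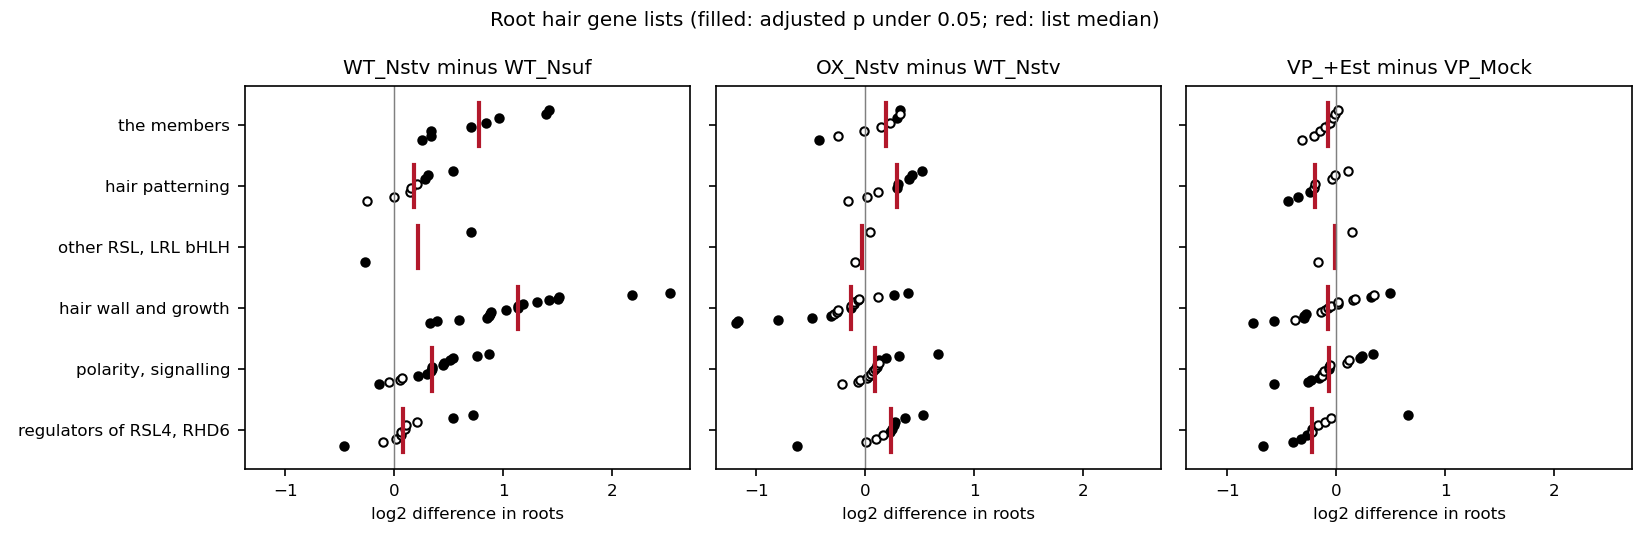
Log2 difference in roots of every tested gene of the root hair lists, for WT_Nstv minus WT_Nsuf, OX_Nstv minus WT_Nstv and VP_+Est minus VP_Mock; filled points have an adjusted p under 0.05 and red bars are list medians. All 17 tested wall and growth genes lie right of 0 under starvation, and XTH12 and XTH13 lie near -1.2 in the overexpressor.

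Of 5 further RSL and LRL basic helix-loop-helix loci 2 were tested, and LRL3 was higher (0.70 ± 0.09) and LRL1 lower (-0.27 ± 0.07) in WT_Nstv roots, with no call for either under overexpression or induction. Among 15 tested polarity and signalling genes, 11 were higher and 1 lower under starvation, including RHD1, a UDP-glucose epimerase (0.76 ± 0.07), the lipid kinase PIP5K3 (0.54 ± 0.09), the GTPase ROP2 (0.34 ± 0.05) and the phosphoinositide phosphatase RHD4 (0.34 ± 0.05); TIP1 was the lower one (-0.14 ± 0.05). Under overexpression 4 were higher and 0 lower, the receptor-like kinases MRH1 (0.66 ± 0.09) and FER (0.31 ± 0.05), RHD3 (0.19 ± 0.05) and SCN1 (0.13 ± 0.05). Under induction 3 were higher and 5 lower; MRH1 (-0.57 ± 0.09), FER (-0.26 ± 0.05), RHD3 (-0.23 ± 0.05), ARAC5 (-0.16 ± 0.06) and SCN1 (-0.13 ± 0.05) were lower, and RHD1 (0.34 ± 0.07), the potassium transporter TRH1 (0.24 ± 0.07) and the kinase AGC2-1 (0.22 ± 0.09) higher.

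Genes known to act on RSL4 or RHD6 gave 10 tested loci. Under starvation the auxin synthesis gene TAA1 (0.72 ± 0.10) and GTL1, a trihelix repressor of RSL4 (0.54 ± 0.08), were higher and OBP4, a Dof factor that represses hair growth, was lower (-0.46 ± 0.08), so 2 were higher and 1 lower. Under overexpression 6 were higher and 1 lower in OX_Nstv: ARF19 (0.53 ± 0.10), ARF8 (0.37 ± 0.09), ARF6 (0.26 ± 0.07), GTL1 (0.24 ± 0.08) and the auxin influx carrier AUX1 (0.22 ± 0.05) were among the higher and OBP4 was the lower one (-0.62 ± 0.08). Under induction 1 was higher and 5 lower in VP_+Est, with the auxin synthesis gene YUC8 higher (0.66 ± 0.11) and OBP4 (-0.67 ± 0.08), GTL1 (-0.40 ± 0.08), ARF8 (-0.32 ± 0.09), AT1G76880 (-0.27 ± 0.08) and AUX1 (-0.22 ± 0.05) lower.

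Some markers of other cell types also differed between the groups in roots. Of 14 tested markers, 5 were higher and 3 lower under starvation, 4 higher and 4 lower under overexpression, and 1 higher and 7 lower under induction. Over all probe sets tested, 33.1% were higher and 21.8% lower for starvation, 21.4% and 16.7% for overexpression and 15.6% and 28.3% for induction. The part of these markers in the results above was not tested. The summed linear signal of the non-hair epidermis markers GL2 and MYB66 ranged from 456 to 491 in OX_Nstv against 359 to 465 in WT_Nstv, and from 265 to 302 in VP_+Est against 343 to 414 in VP_Mock, with 366 to 392 in WT_Nsuf. The endodermis markers SCR and CASP1 summed to 3293 to 3583 in OX_Nstv, 3068 to 3260 in WT_Nstv, 1675 to 1831 in VP_+Est, 2582 to 2736 in VP_Mock and 2285 to 2579 in WT_Nsuf. In each of these pairs, 1 marker was higher and 1 did not pass under overexpression, and both were lower under induction. Of the stele markers, SHR and PHO1 were lower and WOL higher in OX_Nstv, and the sum of the 3 was 1525 to 1609 in OX_Nstv against 2030 to 2163 in WT_Nstv. The phloem markers APL and SUC2 summed to 1108 to 1178 in VP_+Est against 518 to 563 in VP_Mock. Of this pair, 1 was called higher under induction and 1 did not pass. The leaf mesophyll markers LHCB3 and RCA were above the filter in roots and differed most, at 190 to 209 in OX_Nstv, 570 to 591 in WT_Nstv, 541 to 593 in VP_+Est, 817 to 975 in VP_Mock and 1616 to 1708 in WT_Nsuf. The trichome marker MYB0 stayed below the filter.

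The genes whose profile over the 15 root arrays was most like the mean of the 8 root hair genes were found among 15220 candidate probe sets. These were RHS12 (Pearson r = 0.991), RAP2.11 (0.988), AT5G24313 (0.985), NAC003 (0.984), the calcium pump ACA9 (0.982), AT4G30320 (0.980), AT2G23960 (0.979) and AT3G12540 (0.979). The arrays form starved and sufficient groups, so these values mostly describe the step between them. By Spearman's rho RHS12 and AT5G24313 kept a place near the top (rank 3.5 each, rho = 0.950), whereas AT2G23960 came at rank 311. The 4 genes most like RHD6 alone were C4H, the cinnamate 4-hydroxylase (r = 0.982), AT4G36010 (0.977), AT1G55760 (0.977) and AT5G06610 (0.973).

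**Figure D5:**
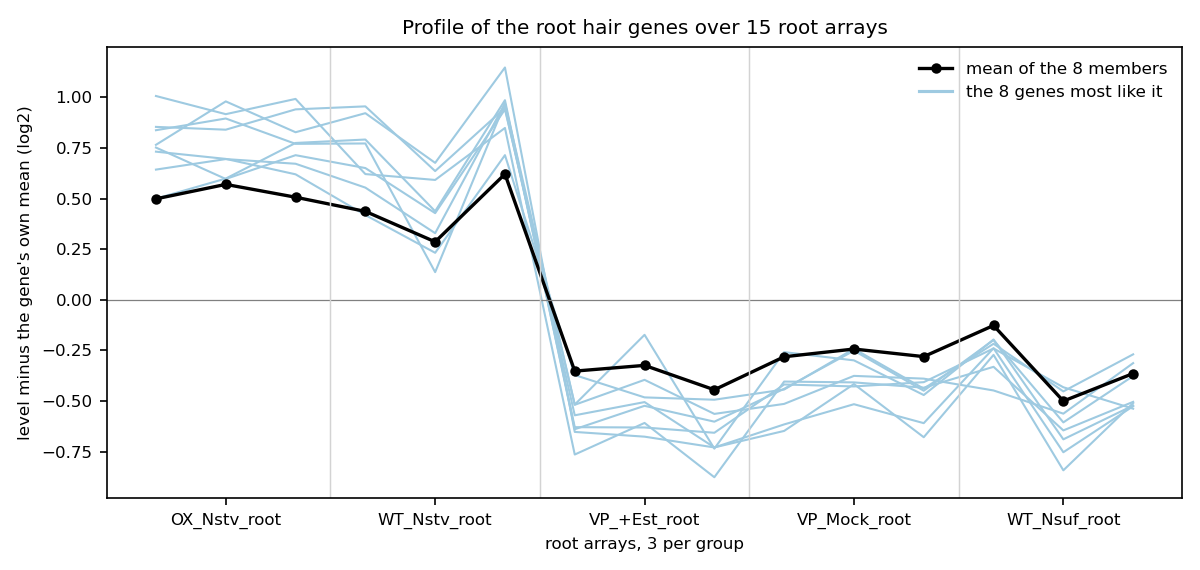
Level of the mean of the 8 root hair genes (black) and of the 8 genes most like it (blue) in each of the 15 root arrays, each gene minus its own mean (log2). The lines step down between the 6 starved arrays and the 9 arrays on NH4NO3, and the black line is lower at replicate 2 of WT_Nstv and of WT_Nsuf than at the other replicates of those groups.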

How the data were processed

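Total RNA of roots and shoots was labelled with biotin and hybridised to Affymetrix arrays. The deposited log2 values are RMA-normalized per the file headers, while the submitters' processing notes name MAS5; software versions are not given in those sources, and raw scanner files were not used here. The deposited tables also hold the authors' log2 ratios, p-values and q-values per comparison. Per the file headers, which abbreviate the test as WelPval, those p-values point to Welch's test. Gene entries were taken from the tables and symbols from a RefSeq table (TAIR10.1), which matched 21278 of 22746 probe sets (21452 with 1 gene, 1110 with several, 184 with none). A probe set with several genes was used only where all belonged to the set.

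Each tissue was fitted alone with limma 3.58.1 (R 4.3.3): 5 group means over 15 arrays, moderated tests with an intensity trend, two-sided, Benjamini-Hochberg adjustment over the probe sets at or above the 30th percentile of mean level, threshold 0.05; ± gives the fit's standard error, or the SD where named. The script was tested on simulated data. The 3 replicates per group, called biological in the titles, limit the precision. The labels' replicate numbers were checked as pairs. Only for induction in roots did every array correlate best with its own number, and the numbers were not used as pairs in the main fit. List genes were named as the 6 with the smallest p per list and comparison, with further members of a count named after their values were seen. The 10 genes and all lists were chosen with earlier results of these data known, and therefore support nothing independently. Alternatives were the spread of only the compared groups, no trend, other filters, quantile normalization, median centring, array weights, a replicate block, a threshold of 0.01, the second deposited value table and leaving out each array. No sequences were used here.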

Additional observations from a re-analysis of the deposited data

Results flagged for a closer look

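The response of a gene in roots minus its response in shoots was tested in one limma fit over the 30 arrays, an analysis chosen after the data were seen. It was limited to the 14550 probe sets above the filter in both tissues, which hold EXPA7, EXPA18 and RHD2. For starvation 53.7% of these probe sets differed between the tissues. That EXPA7 and EXPA18 differed, out of the 3 genes, is near that share and is not read as particular to the root hair genes. EXPA18 differed by 1.09 ± 0.20 (adjusted p = 4.03e-05, limma), with responses of 0.96 in roots and -0.13 in shoots. EXPA7 differed by 0.99 ± 0.17 (adjusted p = 1.2e-05, limma), with responses of 0.84 in roots and -0.15 in shoots. RHD2 did not pass (0.21 ± 0.12, adjusted p = 0.128, limma). All 3 averaged little above the filter level in shoots, and the tissues were normalized in separate tables. The other 5 root hair genes averaged below the filter level in shoots and were not tested for a difference between tissues.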

How the results depend on the processing

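With array weights, the members called were 5 for overexpression in roots, 3 for induction in roots, 1 for the uninduced line in roots, 6 for the overexpression effect minus the induction effect, 1 for starvation in shoots (RHD2, higher) and 2 for induction in shoots (EXPA7 and EXPA18, lower). At a threshold of 0.01 the count was 1 for the uninduced line and 1 for the difference of effects. In roots that threshold also lost the starvation calls of RSL4 and LRX1 and the overexpression call of EXPA7. With only the compared groups it was 2 for induction in roots, and with no filter it was 1 for starvation in shoots (COW1, lower, -0.35). Leaving out 1 array gave 6 to 8 for starvation, 2 to 5 for overexpression, 0 to 0 for induction, 1 to 3 for the uninduced line, 7 to 7 for OX_Nstv against WT_Nsuf and 1 to 4 for the difference of effects in roots, and 0 to 2 for induction in shoots. The LRX1 starvation call was also lost with quantile normalization (adjusted p = 0.0668), centring (0.124) and only the compared groups (0.0919), and that of RSL4 with array weights (0.0775). Shares over all probe sets are not given beside the counts under these settings. The counts show how calls move with the processing and are not read as results about the root hair genes.

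Sign changes came only in differences that had not passed. With quantile normalization EXPA7 was at 0.024 for induction in roots and RHD2 at 0.047 for induction in shoots. With centring EXPA7 (0.029) and LRX1 (0.0058) changed sign for induction in roots, and EXPA18 (-0.025) and RHD2 (-0.022) for overexpression in shoots. With array weights PRP3 was at 0.019 for overexpression in roots, RHD6 at 0.0049 and RSL4 at -0.035 for induction in roots, and EXPA18 at -0.0069 and RHD2 at -0.039 for overexpression in shoots. Leaving out 1 array gave, in roots, -0.015 to 0.29 (EXPA18) and -0.080 to 0.087 (PRP3) for overexpression, -0.054 to 0.051 (EXPA7), -0.16 to 0.024 (RHD6) and -0.076 to 0.098 (RSL4) for induction, -0.086 to 0.28 (COW1), -0.18 to 0.044 (EXPA7) and -0.12 to 0.096 (RSL4) for the uninduced line, and -0.017 to 0.20 (RSL4) for OX_Nstv against WT_Nsuf. In shoots it gave -0.13 to 0.11 (EXPA18), -0.010 to 0.18 (EXPA7) and -0.063 to 0.11 (RHD2) for overexpression and -0.047 to 0.039 (RHD2) for induction. The causes were not tested.

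With the replicate number as a block the counts in roots were 8 for starvation, 3 for overexpression, 0 for induction, 3 for the uninduced line, 7 for OX_Nstv against WT_Nsuf and 4 for the difference of effects, where RHD6 passed (-0.33, adjusted p = 0.0419); in shoots they were 0. The shares over all probe sets with the block are not given, so these counts are not read as results about the root hair genes. Same-numbered arrays correlated in their deviations at -0.14 to 0.16 in roots and at -0.46 to 0.18 in shoots. Every array correlated best with its own number only for induction in roots.

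Over all probe sets, a threshold of 0.01 left 2156 of 3412 higher for overexpression in roots, 840 of 1922 higher and 523 of 971 lower for the uninduced line in roots, and 1602 of 2812 higher and 1537 of 2513 lower in its shoots. For the uninduced line in roots, higher and lower calls were 1175 and 1464 with centring and 1378 and 1297 with quantile normalization, and higher calls were 1113 with only the compared groups, 964 without VP_Mock replicate 1 and 1214 without WT_Nsuf replicate 2. For OX_Nstv against WT_Nsuf, centring gave 5243 and 4787 in place of 6526 and 3804. Over all probe sets the median of the difference of effects was 0.10 before centring. The second deposited value table gave the same calls. Other probe sets per locus were not run, since each gene has 1. Arrays of 3 per group limit what small differences could show, and the 5 genes below the filter in shoots were not tested there.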
